A study of Mus musculus with 9 samples.

Results

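Transcripts of 10 genes of the NF-kB pathway were followed in 5TGM1-Cas9 cells, which are the mouse multiple myeloma line 5TGM1 with Cas9 expressed at all times. The genes were taken by name, as the subunits *Nfkb1*, *Nfkb2*, *Rel*, *Rela* and *Relb* and the inhibitors *Nfkbia*, *Nfkbie*, *Tnfaip3*, *Birc3* and *Traf3*, and all 10 were found among the 53077 genes of each table. The cells had been transduced with a *Rosa26* gRNA (control), with a gRNA against *Slc2a1*, which encodes the glucose transporter GLUT1, or with 5 gRNAs, each aimed at a transporter gene (*Slc2a1*, *Slc2a3*, *Slc2a5*, *Slc2a6* and *Slc2a8*). There were 3 samples in each of the 3 groups. All 3 groups carry Cas9 and a gRNA vector, and the control cells have the wild-type genotype at the transporter genes. The *Slc2a1* gRNA cultures are bulk transduced populations in which not every allele is edited. The *Slc2a1/3/5/6/8* gRNA cells came from a line that first received the gRNAs against the other 4 transporters, was sorted for the reporters of those vectors and expanded, and was then given the *Slc2a1* gRNA. This group may thus differ from control in its sorting and expansion as well as in its gRNAs. The study also made those vectors without a gRNA, and whether the sequenced control cells went through the same steps is not given in the sources used here. The study asked with these libraries whether loss of GLUT1 changes the levels of other sugar transporters, and the NF-kB genes were measured in the same RNA.

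NF-kB is a family of dimeric transcription factors held inactive in the cytoplasm by IkB proteins. In the canonical branch, the IKK complex marks IkB proteins for destruction and frees dimers of p50 (made from *Nfkb1*) with RELA or c-REL, which bind the short kB sequence in DNA and switch on, among others, the genes of their own inhibitors. In the noncanonical branch, TRAF3 keeps the kinase NIK (*Map3k14*) scarce until a receptor of the TNF family removes TRAF3, after which *Nfkb2* is processed to p52 and pairs with RELB. Multiple myeloma is a cancer of plasma cells in which the pathway is often active, in part through loss of TRAF3 or of the cIAP proteins that destroy NIK.

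The estimated counts of a library summed to between 21838805 and 30537105. Levels are given in TPM, the share of a gene among all transcripts of a library, scaled to the same total in each. *Slc2a1* itself had 59.5, 26.9 and 32.9 TPM in the control samples, 37.1, 28.3 and 31.4 with the *Slc2a1* gRNA, and 24.1, 31.5 and 19.1 with the *Slc2a1/3/5/6/8* gRNAs. Its log2 fold change was -0.21 (standard error, SE, 0.18, adjusted p = 0.544 by edgeR's quasi-likelihood test) with the *Slc2a1* gRNA and -0.66 (SE 0.18, adjusted p = 0.029) with the 5 gRNAs. A transcript that carries a small edit is still counted. Of 8 plasma cell markers, 7 had a mean of at least 1 TPM in every group, with sums of 672 to 1100 TPM, and *Tnfrsf17* was the one below. Of these markers *Jchain*, the joining chain of secreted antibody, changed in all 3 comparisons. In *Slc2a1* gRNA cells it was lower than in control (log2 fold change -1.33, adjusted p = 0.00529), in 5-gRNA cells higher (0.59, adjusted p = 0.0348), and the deleted groups differed by 1.92 (adjusted p = 0.000221). *Jchain* was singled out after its values were seen, and the part of this shift in the results was not tested. None of the 5 B cell, 5 T cell, 5 myeloid and 4 fibroblast markers reached 1 TPM in any group mean, and their sums did not exceed 1.76 TPM per list in a sample. Replicate 1 of the *Slc2a1/3/5/6/8* gRNA group and control replicate 3 stood apart from their groups. The chi-squared of the counts of the former, divided by the degrees of freedom, was 75.8 and 111 against replicates 2 and 3, which differed from each other by 23.6. For control replicate 3 it was 59.6 and 52.1 against replicates 1 and 2, which differed by 20.8. The former had the highest share of mitochondrial counts of the 9 libraries, 11.1%, and control replicate 3 the lowest, 4.84%, against 8.01% and 8.02% in the other control samples. Replicates 2 and 3 of the *Slc2a1/3/5/6/8* gRNA group had 5.84% and 4.91%, and the *Slc2a1* gRNA samples 8.69%, 10.5% and 6.57%.

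The kB sequence is the element that NF-kB dimers read, and it was looked for in the promoters of the 10 genes because several of them are known targets of the factor they form or hold back. RefSeq promoter windows (GRCm38.p6), from 250 bases before to 50 after a transcription start, were given for 8 of the 10 genes, in 11 windows. The windows of *Rel*, *Nfkbia*, *Tnfaip3*, *Nfkb2*, *Nfkbie* and *Traf3* hold at least 1 match to the 10-base kB consensus on either strand. The 130 bases before the start in those 6 genes are shown 5′ to 3′ on the gene's strand, with the matches in capitals.
Rel: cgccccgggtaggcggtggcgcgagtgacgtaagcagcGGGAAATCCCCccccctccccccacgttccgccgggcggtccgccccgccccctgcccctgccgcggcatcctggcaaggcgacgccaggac
Nfkbia: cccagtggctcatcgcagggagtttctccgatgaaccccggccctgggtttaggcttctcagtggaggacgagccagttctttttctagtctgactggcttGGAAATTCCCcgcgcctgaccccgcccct
Tnfaip3: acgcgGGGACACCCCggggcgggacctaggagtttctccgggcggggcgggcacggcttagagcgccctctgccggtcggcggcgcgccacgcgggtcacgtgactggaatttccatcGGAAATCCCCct
Nfkb2: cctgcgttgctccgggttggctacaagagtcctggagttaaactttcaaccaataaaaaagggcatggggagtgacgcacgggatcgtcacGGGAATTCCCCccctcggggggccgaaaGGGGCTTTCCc
Nfkbie: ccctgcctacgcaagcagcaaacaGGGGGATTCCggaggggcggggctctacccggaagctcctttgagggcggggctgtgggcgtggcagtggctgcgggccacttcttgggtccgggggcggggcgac
Traf3: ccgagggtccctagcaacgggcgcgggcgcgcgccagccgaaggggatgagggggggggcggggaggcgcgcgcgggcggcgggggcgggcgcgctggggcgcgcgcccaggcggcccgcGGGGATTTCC
These stretches lie at chr11:23770970-23771099 (minus strand, *Rel*), chr12:55492648-55492777 (minus strand, *Nfkbia*), chr10:19015411-19015540 (minus strand, *Tnfaip3*), chr19:46304607-46304736 (plus strand, *Nfkb2*), chr17:45555570-45555699 (plus strand, *Nfkbie*) and chr12:111166240-111166369 (plus strand, *Traf3*).

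In *Rel*, which encodes c-REL, 2 overlapping matches, GGGAAATCCC and GGAAATCCCC, begin 92 and 91 bases before the start. The match in *Nfkbia*, which encodes IkBa, is GGAAATTCCC and begins 29 bases before the start. *Tnfaip3*, which encodes the deubiquitinase A20, holds GGGACACCCC from 125 bases and GGAAATCCCC from 12 bases before the start. The 10 letters GGAAATCCCC are thus shared by *Rel* and *Tnfaip3*, and *Traf3* holds them on the other strand as GGGGATTTCC, ending at the last base before its start. *Nfkbie* holds GGGGGATTCC from 106 bases before the start. The most upstream *Nfkb2* start has GGGAATTCCC, the overlapping GGAATTCCCC and, 11 bases before the start, GGGGCTTTCC, and the other 2 *Nfkb2* windows hold GGAATGTCCC and a copy of GGGACTTTCC that both windows cover. No match lies in the windows of *Rela* and *Birc3* or in the second window of *Tnfaip3*. In all, 8 of 11 member windows held a match, against 8.46% of the 32851 promoter windows in the RefSeq table, and 6 of 8 member genes against 9.55% of 27025 genes. A match of letters is not a bound site, and binding was not measured.

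**Figure D1:**
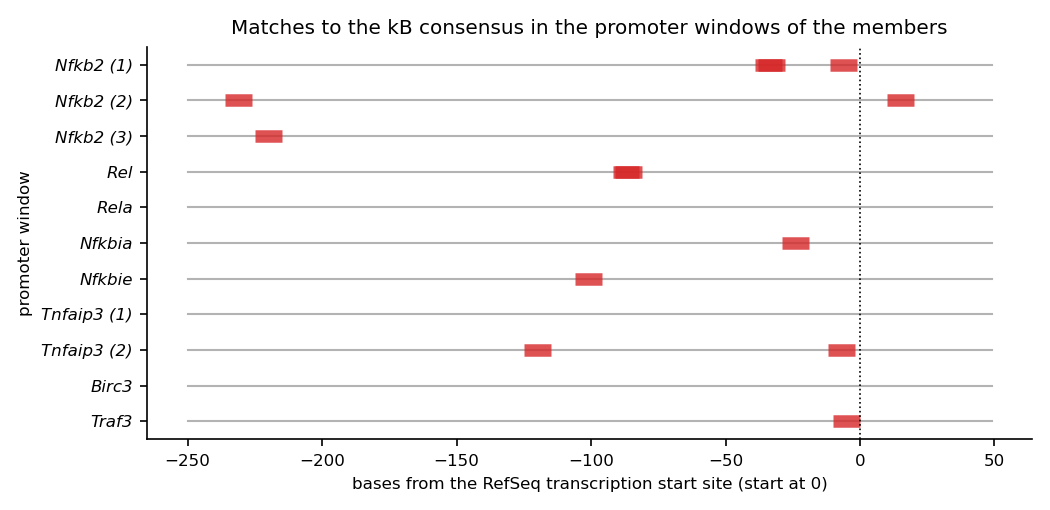
Positions of matches to the kB consensus (red) along the 11 RefSeq promoter windows of 8 members, in bases from the transcription start site, with each grey line a window of 300 bases and numbers in brackets separating windows of one gene. Matches lie within 40 bases of the start in *Nfkbia*, *Traf3*, 1 *Tnfaip3* window and 2 *Nfkb2* windows, and the *Rel* pair lies further upstream, while *Rela* and *Birc3* have none.

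In control cells all 10 genes were transcribed. Levels were compared between genes in TPM, which corrects for transcript length, and the control mean of every member was above that of at least 84.6% of the genes in the table, 26597 of which had no count in any sample. *Nfkbia* was the most abundant at 70.9 ± 11.6 TPM (SD, n = 3), with 61.9, 66.9 and 84.0 in control replicates 1, 2 and 3. *Nfkb1* followed with 49.1, 41.6 and 55.5 TPM, and *Rela*, the main activating subunit of the canonical branch, with 35.2, 32.4 and 47.0. The noncanonical subunits lay lower, *Nfkb2* at 27.3, 24.5 and 30.6 TPM and *Relb* at 21.4, 18.8 and 23.9. *Birc3*, which encodes the ubiquitin ligase cIAP2, was close to them at 21.98, 17.9 and 30.3 TPM. The other 4 members had control means under 10 TPM. *Traf3* was at 8.31 ± 1.21 TPM (SD, n = 3), *Nfkbie*, which encodes IkBe, at 7.25 ± 1.59, *Tnfaip3* at 6.59 ± 1.06 and *Rel* at 5.64 ± 1.65. In the order of these levels, the replicates of *Nfkbia* lay above those of *Nfkb1*, those of *Rela* above those of *Nfkb2*, and those of *Relb* above those of *Traf3*. The ranges of the other 6 neighbouring pairs overlapped. Within each control sample, however, *Nfkb1* was above *Rela*, *Nfkb2* above *Birc3*, *Traf3* above *Nfkbie* and *Tnfaip3* above *Rel*. The order of *Birc3* and *Relb*, and that of *Nfkbie* and *Tnfaip3*, changed between control samples. *Rel*, with the lowest mean of the 10, still rested on 1093 to 1812 estimated counts per control sample.

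**Figure D2:**
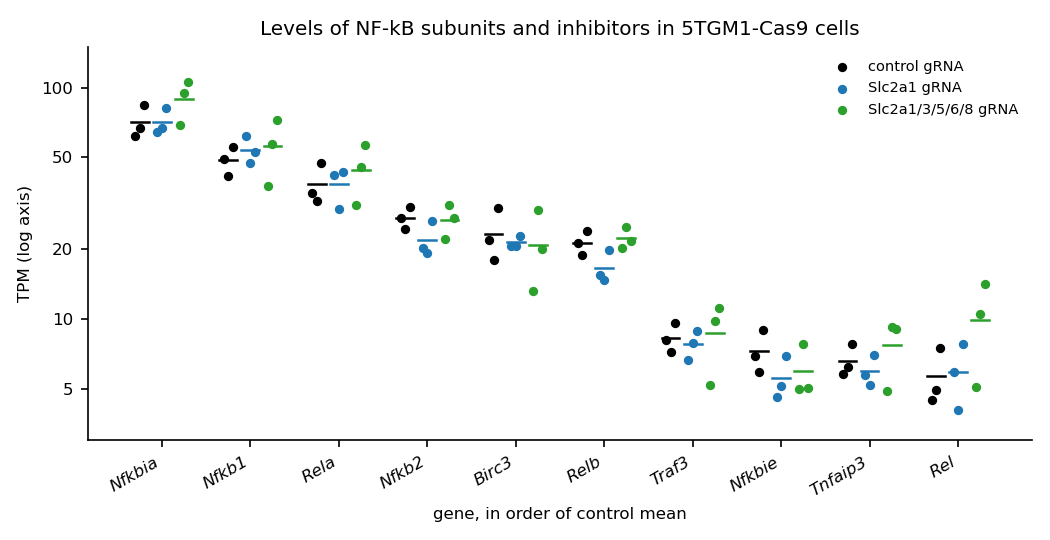
TPM (log axis) of the 10 members in each sample, in order of the control mean, with black points for control, blue for *Slc2a1* gRNA and green for *Slc2a1/3/5/6/8* gRNA cells and a bar at each group mean. *Nfkbia* is highest in all 3 groups, and *Rel* moves from the lowest mean in control cells (5.64 TPM) to 9.91 TPM with the 5 gRNAs, where its samples spread from 5.09 to 14.2.

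The same order of the first 4 genes, *Nfkbia*, *Nfkb1*, *Rela* and *Nfkb2*, was found in the means of all 3 groups. With the *Slc2a1* gRNA, *Nfkbia* was at 64.1, 66.8 and 81.7 TPM, and with the 5 gRNAs at 69.2, 94.5 and 105.5. *Rel* was at 5.91, 4.02 and 7.82 TPM with the *Slc2a1* gRNA and at 5.09, 10.5 and 14.2 with the 5 gRNAs. On this scale the ranges of *Nfkbia* and *Rel* overlapped between each of the 2 deleted groups and control. TPM moved with the library as well as with the gene. Control replicate 3 was the highest control sample for 10 of 10 members, and replicate 1 of the 5-gRNA group was the lowest of its group for 10 of 10. Single genes were therefore compared between groups in CPM, a gene's counts relative to those of its library, scaled by edgeR's TMM factors, which is the scale of the tests. For *Rel*, whose transcript length was constant over samples, TPM divided by CPM ranged from 0.0944 in that replicate to 0.136 in control replicate 3.

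Of the 10 members, 2 rose in *Slc2a1/3/5/6/8* gRNA cells relative to control, *Rel* and *Nfkbia*, and 0 fell. Over all 13834 genes tested in the same fit, 15.9% were called in that comparison and 8.49% were called higher, and with 10 genes 2 calls are near that background. A call here is a Benjamini-Hochberg adjusted p under 0.05 over all genes tested. The members had a median log2 fold change of 0.146, beside 0.007 over all genes. In *Slc2a1* gRNA cells 0 of 10 members were called by edgeR against 4.64% of all genes, with 2 members, *Rela* and *Nfkbia*, at an unadjusted p under 0.05 (beside 21.95% of all genes). DESeq2 called 0 as well, beside 4.39% of 26457 genes, and edgeR called 1, *Nfkb1*, when only these 2 groups were fitted (adjusted p = 0.045), a fit that called 16.7% of all genes. Their median log2 fold change was -0.033, beside -0.001 over all genes. Between the 2 deleted groups 0 of 10 were called by edgeR against 2.31%, with 2 at an unadjusted p under 0.05, *Rel* and *Relb* (beside 19.08% of all genes). DESeq2 called *Rel* there, in a fit that called 2.72% of 26457 genes, and called 0 members without the replicate block. The 2 comparisons with control share its 3 samples, so their values are not independent of each other.

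**Figure D3:**
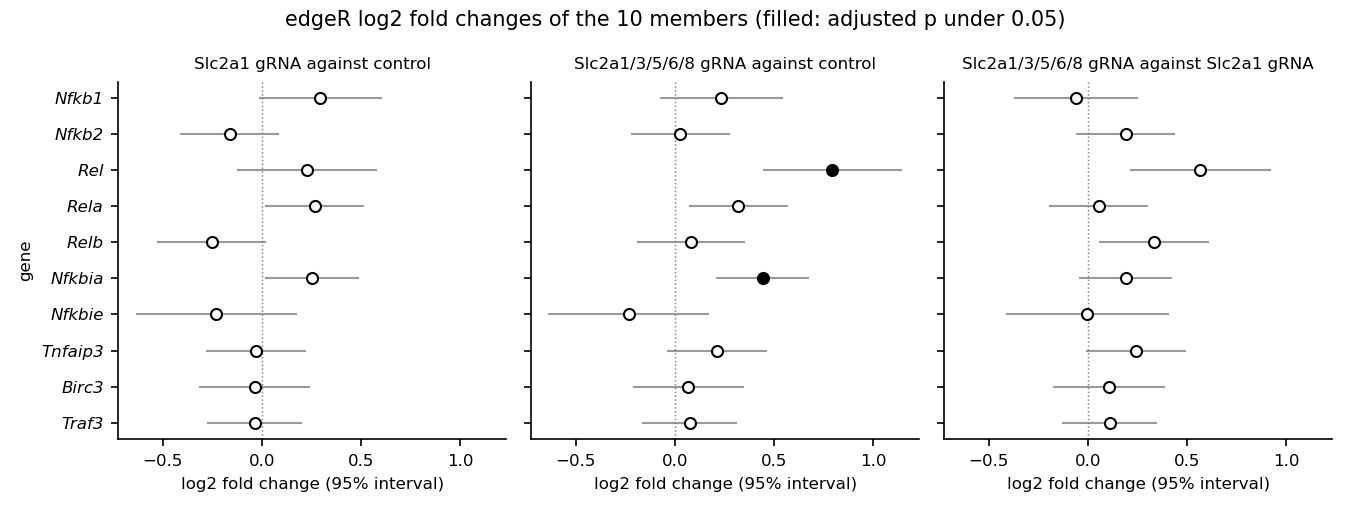
log2 fold changes of the 10 members by edgeR's quasi-likelihood test in the 3 comparisons, with 95% intervals as grey lines and filled points at an adjusted p under 0.05. *Rel* (0.79) and *Nfkbia* (0.44) with the 5 gRNAs against control are the filled points, and the intervals of *Rela* exclude 0 in both comparisons with control without passing the adjustment.

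*Rel* showed the largest difference of the 10. c-REL is the subunit most tied to B lymphocytes, where it drives growth and survival genes. Its CPM was 38.2, 44.2 and 55.5 in the control samples, 54.7, 40.0 and 66.2 with the *Slc2a1* gRNA, and 53.9, 82.4 and 106.4 with the 5 gRNAs. Replicates 2 and 3 of the 5-gRNA group lay above all other samples, while its replicate 1 lay below the highest control sample. In each group *Rel* was highest in replicate 3, the library with the lowest mitochondrial share of its group (4.84%, 6.57% and 4.91%). The part of library quality in the *Rel* values was not tested. The log2 fold change against control was 0.79 (SE 0.16, 95% interval 0.45 to 1.14, adjusted p = 0.00729), a 1.73-fold difference, with the 5-gRNA sample higher in 3 of 3 same-numbered pairs. Without replicate 1 of the 5-gRNA group, the library with the high mitochondrial share, the value was 0.99 (adjusted p = 0.000598), and without control replicate 3 it was 0.76 (adjusted p = 0.0531). The call was also lost with limma on log2(TPM + 1), where the value was 0.65 (adjusted p = 0.187). With the *Slc2a1* gRNA alone *Rel* had a log2 fold change of 0.23 (SE 0.16, adjusted p = 0.44), which was -0.0080 without replicate 1 of that group. Against the *Slc2a1* gRNA group it was 0.57 with the 5 gRNAs (SE 0.16, adjusted p = 0.0869 by edgeR and 0.0304 by DESeq2). Of the 9 alternatives 2 called it, DESeq2 and edgeR with no filter on low counts (adjusted p = 0.00068), a fit that called 3.68% of 26457 genes. It was also called in 2 of the 9 fits that left out 1 sample. DESeq2 without the replicate block called 0 members in that comparison, so the DESeq2 call of *Rel* rests on the block. In bulk RNA, more transcript in each cell and more cells that carry the transcript cannot be told apart. *Rel* lies at chr11:23736847-23770970 on the minus strand in GENCODE M21, and no exonic base of it overlaps an exon of another gene.

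*Rela* and *Nfkb1*, the partners of the classical p50:RELA dimer, did not pass the test in any of the 3 comparisons. *Rela* had a CPM of 86.1, 80.4 and 99.3 in control, 115.9, 99.0 and 103.4 with the *Slc2a1* gRNA, and 101.5, 106.7 and 122.8 with the 5 gRNAs. Every 5-gRNA sample was above every control sample, and the *Slc2a1* gRNA samples touched the control range at 99.0. The log2 fold changes against control were 0.32 (SE 0.11, adjusted p = 0.0735) with the 5 gRNAs and 0.27 (SE 0.11, adjusted p = 0.19) with the *Slc2a1* gRNA. The former passed with DESeq2 (adjusted p = 0.0442), without *Slc2a1* gRNA replicate 1 (0.0492) and without replicate 1 of the 5-gRNA group (0.0347), and missed it in the other fits that left out 1 sample (up to 0.286). With limma on log2(TPM + 1) the *Rela* values were 0.19 (adjusted p = 0.609) with the 5 gRNAs and 0.0052 (adjusted p = 0.992) with the *Slc2a1* gRNA, so that the latter difference is not seen in TPM, on which the median of all genes stood at -0.111. *Nfkb1*, whose product is the precursor of p50, had a CPM of 181.2, 163.3 and 180.1 in control, 252.3, 195.9 and 195.3 with the *Slc2a1* gRNA, and 173.7, 201.0 and 242.1 with the 5 gRNAs. The *Slc2a1* gRNA samples were all above the control samples, with a log2 fold change of 0.29 (SE 0.14, adjusted p = 0.244) that was 0.12 (adjusted p = 0.731) without replicate 1 of that group, and the 5-gRNA samples overlapped them, with 0.23 (SE 0.14, adjusted p = 0.282). Without replicate 1 of the 5-gRNA group the latter was 0.41 (adjusted p = 0.0339), and without its replicate 3 it was 0.0922 (adjusted p = 0.758). *Rela* lies at chr19:5637483-5648130 (plus strand) and *Nfkb1* at chr3:135584655-135691547 (minus strand).

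*Nfkb2* and *Relb*, the subunits of the noncanonical branch, did not pass the test in any of the 3 comparisons either. *Relb* had a CPM of 49.3, 44.9 and 47.0 in control, 35.7, 38.7 and 43.8 with the *Slc2a1* gRNA, and 54.6, 51.7 and 43.0 with the 5 gRNAs. The *Slc2a1* gRNA samples lay below all control samples, with a log2 fold change of -0.25 (SE 0.12, 95% interval -0.52 to 0.02, adjusted p = 0.254). Between the 5-gRNA and *Slc2a1* gRNA groups it was 0.33 (SE 0.12, adjusted p = 0.169). *Nfkb2*, whose product is the p52 precursor and is itself an IkB-like inhibitor until it is cut, had a CPM of 89.6, 85.0 and 86.4 in control. It was at 73.1, 74.1 and 85.9 with the *Slc2a1* gRNA and 90.2, 94.8 and 81.0 with the 5 gRNAs. Its log2 fold change was -0.16 (SE 0.11, adjusted p = 0.427) with the *Slc2a1* gRNA, lower in 3 of 3 pairs but with overlapping ranges, and 0.03 (SE 0.11, adjusted p = 0.896) with the 5 gRNAs, a sign that turned to -0.02 under total count normalization. *Relb* lies at chr7:19606217-19629438 (minus strand). *Nfkb2* lies at chr19:46304320-46312385 (plus strand), and 18.1% of its exonic bases overlap exons of genes on the other strand, *Psd* and *AC114539.1*. The strand setting of the counting is not given in the sources used here, so their reads may not be told apart.

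Within a sample, the 5 subunits can be set against each other in TPM, as a description with no test. *Nfkb2* and *Relb* together amounted to 0.549, 0.548 and 0.495 of the sum of *Nfkb1*, *Rel* and *Rela* in control replicates 1, 2 and 3. The ratio was 0.327, 0.417 and 0.446 with the *Slc2a1* gRNA, below all control samples, and 0.575, 0.496 and 0.344 with the 5 gRNAs, which spread across both other groups. *Rel* made up 3.25 to 4.57% of the subunit sum in control samples, 3.49 to 5.21% with the *Slc2a1* gRNA and 4.39 to 7.37% with the 5 gRNAs. *Nfkb1* was the largest part in all 9 samples, from 32.4 to 42.5%.

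**Figure D4:**
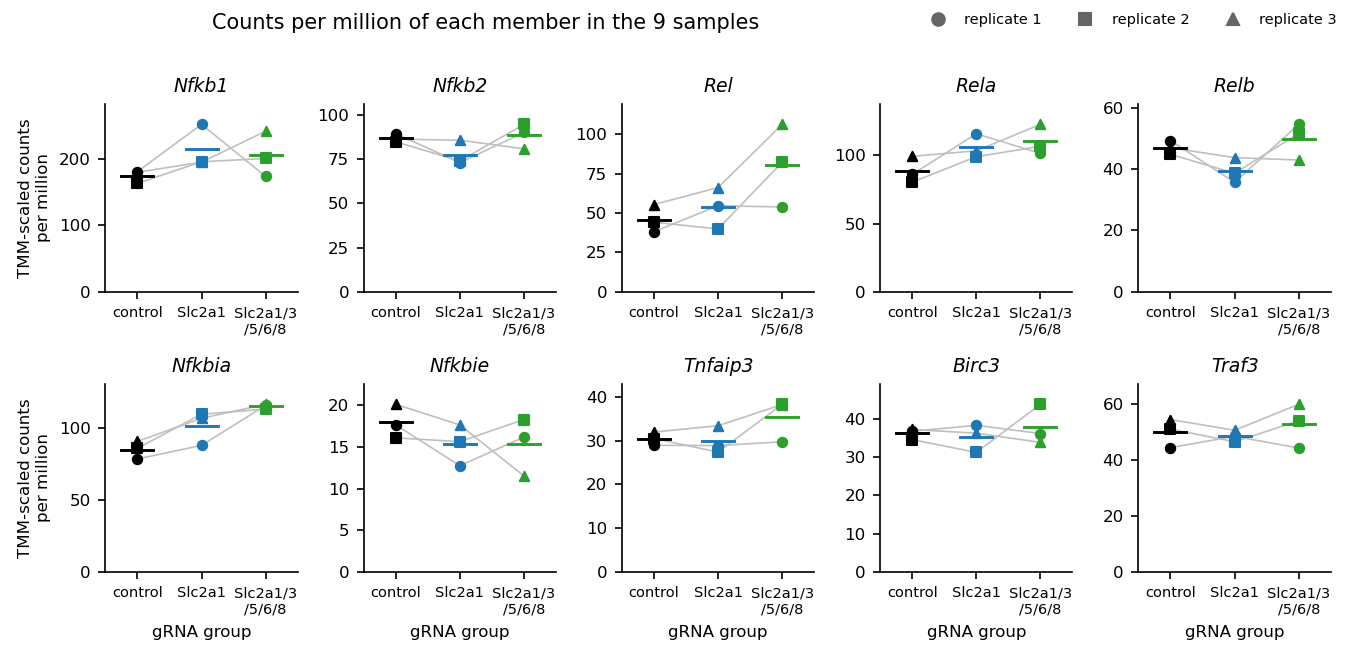
TMM-scaled CPM of each member in the 9 samples (axes from 0), by gRNA group, with symbols for the replicate number, grey lines between same-numbered samples and a bar at each group mean. *Nfkbia* with the 5 gRNAs sits between 112.9 and 116.2, above all control samples (78.3 to 90.5), and *Rel* spreads from 53.9 to 106.4.

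*Nfkbia*, the inhibitor that resets the canonical pathway after each activation and is among the most direct of its targets, rose with the 5 gRNAs. Its CPM was 78.3, 85.7 and 90.5 in control, 87.7, 109.3 and 106.5 with the *Slc2a1* gRNA, and 115.5, 112.9 and 116.2 with the 5 gRNAs. The 5-gRNA samples lay close together and above every sample of both other groups. The log2 fold change against control was 0.44 (SE 0.11, 95% interval 0.21 to 0.67, adjusted p = 0.0167), a 1.36-fold difference. The call was lost without control replicate 1, 2 or 3 (adjusted p = 0.113, 0.0828 or 0.0755), with log2 fold changes of 0.43, 0.43 and 0.47. Those fits called 631, 994 and 736 genes in all in place of 2204. With limma on log2(TPM + 1) the log2 fold change was 0.33 (adjusted p = 0.171). *Slc2a1* gRNA alone gave a log2 fold change of 0.25 (SE 0.11, adjusted p = 0.187), higher in 3 of 3 pairs, but 0.0027 (adjusted p = 0.994) with limma on log2(TPM + 1). The 2 deleted groups differed by 0.19 (SE 0.11, adjusted p = 0.365). *Nfkbia* lies at chr12:55489410-55492647 on the minus strand.

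The other feedback inhibitors did not pass the test. *Tnfaip3* had a CPM of 28.9, 30.5 and 31.9 in control, 28.9, 27.4 and 33.4 with the *Slc2a1* gRNA, and 29.7, 38.3 and 38.2 with the 5 gRNAs. A20 strips the ubiquitin chains that carry the signal to IKK. Replicates 2 and 3 of the 5-gRNA group were above all control samples and replicate 1 was within their range, and the log2 fold change was 0.21 (SE 0.11, 95% interval -0.03 to 0.46, adjusted p = 0.223). With the *Slc2a1* gRNA it was -0.03 (SE 0.11, adjusted p = 0.913), and the sign reversed in some fits that left out a sample. *Nfkbie*, the least counted member, had a CPM of 17.7, 16.1 and 20.1 in control, 12.7, 15.6 and 17.7 with the *Slc2a1* gRNA, and 16.2, 18.3 and 11.5 with the 5 gRNAs. Its ranges overlapped in all 3 comparisons, and the log2 fold change was -0.23 in both comparisons with control (SE 0.18 and 0.18, adjusted p = 0.501 with the *Slc2a1* gRNA and 0.419 with the 5). In the 5-gRNA cells *Nfkbia* was thus called higher while the *Nfkbie* value was below 0 without a call (0.045 without replicate 3 of that group), and the difference between the 2 genes was not tested. *Tnfaip3* lies at chr10:19000910-19015657 (minus strand) and *Nfkbie* at chr17:45555703-45563169 (plus strand).

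*Birc3* and *Traf3* act together with TRAF2 in the complex that destroys NIK. *Traf3* had a CPM of 44.5, 51.1 and 54.5 in control, 48.5, 46.5 and 50.7 with the *Slc2a1* gRNA, and 44.3, 54.0 and 59.9 with the 5 gRNAs, so that the 3 groups overlapped. Its log2 fold change was -0.04 (95% interval -0.27 to 0.20, adjusted p = 0.88) with the *Slc2a1* gRNA and 0.07 (-0.16 to 0.31, adjusted p = 0.684) with the 5 gRNAs. *Birc3* had a CPM of 36.8, 34.6 and 37.2 in control, 38.3, 31.2 and 36.3 with the *Slc2a1* gRNA, and 36.2, 43.8 and 33.9 with the 5 gRNAs. Its log2 fold change was -0.04 (95% interval -0.31 to 0.24, adjusted p = 0.897) with the *Slc2a1* gRNA and 0.07 (-0.21 to 0.34, adjusted p = 0.758) with the 5 gRNAs. The TPM of *Birc3* is less firm than its counts, because the transcript length assigned to it by Salmon ranged from 1373 to 2152 bases over the 9 samples, and with limma on log2(TPM + 1) the 5-gRNA value had the other sign, -0.19. *Birc2*, its close paralog, can share reads with it. *Traf3* lies at chr12:111166370-111267153 (plus strand) and *Birc3* at chr9:7848699-7873186 (minus strand).

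The steps above the members were described with a list of 35 genes for receptors, adaptors and kinases, of which 30 had a control mean of at least 1 TPM. Among the receptors of plasma cell survival factors, *Tnfrsf13b* (TACI) was at 179 TPM in control (SD 21.98, n = 3) and *Tnfrsf13c* (the BAFF receptor) at 11.5 ± 2.69. *Tnfrsf17* (BCMA) was at 0.912 TPM from 5 to 24 counts, and *Cd40* at 0.575 TPM. *Ltbr*, the lymphotoxin beta receptor, was at 32.8 ± 8.63 TPM. Of the IKK complex, *Chuk* (IKKa) was at 49.6 TPM, *Ikbkb* (IKKb) at 15.0 and *Ikbkg* (NEMO) at 11.97. The NIK gene *Map3k14* was at 2.43 TPM, *Traf2* at 7.74 and *Birc2* (cIAP1) at 23.4.

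With the *Slc2a1* gRNA, 2 of 33 tested genes of that list fell and 0 rose (6.06% called, beside 4.64% of all genes), with a median log2 fold change of -0.068 beside -0.001 over all genes. *Traf1*, an adaptor of TNF receptors, fell from a CPM of 62.2, 44.8 and 54.4 in control to 29.4, 33.8 and 35.2, a log2 fold change of -0.70 (SE 0.15, adjusted p = 0.0254), with no overlap. *Birc2* had a CPM of 66.5, 64.02 and 68.1 in control and 38.96, 45.5 and 55.03 with the *Slc2a1* gRNA, a log2 fold change of -0.51 (SE 0.13, adjusted p = 0.0458). Both calls were lost without any 1 of the control samples or of *Slc2a1* gRNA replicates 1 and 2 (adjusted p up to 0.228), fits that called 11 to 72 genes in all in place of 642. In those fits the log2 fold changes were -0.84 to -0.52 for *Traf1* and -0.56 to -0.38 for *Birc2*. With the 5 gRNAs, 2 genes of the list rose and 3 fell (15.2% called, beside 15.9% of all genes), with a median of -0.014 beside 0.007. *Traf1* fell there too, to a CPM of 35.4, 30.7 and 24.4, with a log2 fold change of -0.83 (SE 0.15, adjusted p = 0.00405), as did *Chuk*, at -0.41 (SE 0.11, adjusted p = 0.0291). *Birc2*, given here after its value was seen, fell as well, at -0.45 (SE 0.13, adjusted p = 0.0384). *Tlr4*, the receptor for lipopolysaccharide, rose by 0.71 (SE 0.11, adjusted p = 0.00202) and *Tnfrsf13b* by 0.42 (SE 0.10, adjusted p = 0.018). *Tnfrsf13b* had a CPM of 241.8, 246.5 and 256.2 with the 5 gRNAs against 182.1, 190.3 and 182.2 in control. The *Traf1* and *Tlr4* calls held in each of the fits that left out 1 sample. Those of *Chuk* and *Tnfrsf13b* did not hold without any 1 control sample or without replicate 3 of the 5-gRNA group, nor that of *Chuk* without its replicate 1 (adjusted p up to 0.164). The *Birc2* call was lost without any 1 control sample, without *Slc2a1* gRNA replicate 2 and without replicate 3 of the 5-gRNA group (adjusted p up to 0.212). Between the deleted groups *Tlr4* alone of the 33 was called (3.03%, beside 2.31% of all genes). *Tlr4* was higher with the 5 gRNAs by 0.80 (SE 0.11, adjusted p = 0.00406, but 0.0545 without *Slc2a1* gRNA replicate 2 and 0.0505 with limma on log2(TPM + 1)).

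Of 22 further inhibitors and IkB-like proteins, 20 were tested and 1 was called in each comparison, which is 5.0% beside 4.64%, 15.9% and 2.31% of all genes. *Peli1*, a ubiquitin ligase known to restrain c-REL in T cells, fell with the *Slc2a1* gRNA, from a CPM of 34.2, 45.6 and 50.4 to 26.02, 26.6 and 38.2, ranges that overlap. Its log2 fold change was -0.52 (SE 0.12, adjusted p = 0.0307), and it was higher by 0.51 with the 5 gRNAs than with the *Slc2a1* gRNA alone (SE 0.12, adjusted p = 0.0484). Both *Peli1* calls were lost without the replicate block (adjusted p = 0.121 and 0.184), the latter with only the 2 groups fitted (0.166), and the former also without any control sample or *Slc2a1* gRNA replicate 1 or 2, the latter without any sample other than replicate 3 of the 5-gRNA group (adjusted p up to 0.302). The *Peli1* log2 fold changes were -0.52 and 0.50 without the block, and the latter was 0.50 with only the 2 groups. *Nfkbiz*, which encodes a nuclear IkB protein that helps to switch on some NF-kB targets and so does not act as a plain inhibitor, rose with the 5 gRNAs by 0.57 (SE 0.17, adjusted p = 0.0447). Its ranges overlapped, and the call was lost without the block (adjusted p = 0.062), with total count normalization (0.088), without any control sample, without *Slc2a1* gRNA replicate 2 and without replicate 2 or 3 of the 5-gRNA group (up to 0.204). The *Nfkbiz* log2 fold change was 0.55 without the block and 0.52 with total counts.

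A list of 47 genes known as NF-kB targets in some cell type was read in the same way, and 33 of them passed the filter on low counts. With the *Slc2a1* gRNA, 4 rose and 2 fell (18.2% called, beside 4.64% of all genes, or 3 and 2 of 32, 15.6%, without *Ccl3*), with a median log2 fold change of -0.028. The list was chosen with earlier results of these data known, and whether it differs from other genes was not tested here either. *Ebi3*, a subunit of interleukin 27, rose by 0.67 (SE 0.11, adjusted p = 0.0114) and *Myc*, the growth regulator, by 0.51 (SE 0.10, adjusted p = 0.0209). *Ltb*, which encodes lymphotoxin beta, had a CPM of 1.64, 1.71 and 3.55 in control and 5.195, 6.80 and 9.47 with the *Slc2a1* gRNA, a log2 fold change of 1.65 (SE 0.28, adjusted p = 0.012). The chemokine gene *Ccl3* had no count in the 3 control samples and 24, 19.2 and 25 estimated counts with the *Slc2a1* gRNA, at least 9.97-fold higher against a floor of 3 counts per control library. *Ccl3* passed the filter on low counts only through the group where it is high, so its call is no support and no p is given. *Fas* and *Tapbp*, named here after their values were seen, fell by 0.89 (adjusted p = 0.0485) and 0.61 (adjusted p = 0.0324) on the log2 scale. Both were lost without any control sample or *Slc2a1* gRNA replicate 1 or 2, and *Fas* also without replicate 2 of the 5-gRNA group and without the replicate block (adjusted p up to 0.243). The calls of *Ebi3*, *Myc* and *Ltb* were each lost without control replicate 1, control replicate 2 or *Slc2a1* gRNA replicate 2, those of *Ebi3* and *Myc* also without control replicate 3, and that of *Myc* without *Slc2a1* gRNA replicate 1 (adjusted p up to 0.154). With limma on log2(TPM + 1) the calls of *Ebi3*, *Myc*, *Ltb*, *Fas* and *Tapbp*, and those of *Traf1*, *Birc2* and *Peli1*, with the *Slc2a1* gRNA were lost (adjusted p from 0.073 to 0.284) with the direction kept, at log2 values of -0.73 for *Traf1*, -0.68 for *Birc2*, -0.69 for *Peli1*, -0.72 for *Tapbp*, -0.87 for *Fas*, 0.51 for *Ebi3*, 1.18 for *Ltb* and 0.30 for *Myc*. That fit called 0 of all 13834 genes in this comparison, so the losses are not particular to these genes.

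With the 5 gRNAs, 13 of the 33 targets were called (39.4%, beside 15.9% of all genes), 7 higher and 6 lower (6 and 6 of 32, 37.5%, without *Ccl3*), with a median of 0.042, and whether the list differs from other genes was not tested. *Myc* rose from a CPM of 265.3, 285.3 and 307.5 in control to 478.4, 503.3 and 574.6, a log2 fold change of 0.86 (SE 0.10, adjusted p = 0.000462). *Ebi3* rose by 0.82 (SE 0.11, adjusted p = 0.000984) and *Ltb* by 1.88 (SE 0.28, adjusted p = 0.00156). *Tap1*, the peptide pump of antigen presentation, fell from a CPM of 382.6, 333.4 and 350.8 to 233.4, 215.8 and 179.4, a log2 fold change of -0.77 (SE 0.11, adjusted p = 0.00156). These 4 calls held in every alternative fit, limma on TPM and each left-out sample included (adjusted p at most 0.0228), whereas those of *Traf1*, *Tlr4*, *Tnfrsf13b*, *Chuk*, *Birc2* and *Nfkbiz* with the 5 gRNAs were lost with limma on log2(TPM + 1), with adjusted p from 0.052 to 0.35. Their log2 values there were -0.65, 0.62, 0.52, -0.75, -0.50 and 0.47 in the same order of genes. Between the deleted groups 1 of 33 targets was called (3.03%, beside 2.31% of all genes), *Tap1*, lower with the 5 gRNAs by 0.52 on the log2 scale (SE 0.11, adjusted p = 0.0358). The call was lost without the replicate block (adjusted p = 0.0663), with total count normalization (0.0724), with only the 2 groups fitted (0.154), with limma on log2(TPM + 1) (0.303), and without any 1 control or *Slc2a1* gRNA sample or replicate 3 of the 5-gRNA group (up to 0.137). The *Tap1* log2 fold change was -0.52 without the block, -0.48 with total counts, -0.54 with only the 2 groups and -0.44 with limma on log2(TPM + 1). In the RefSeq promoter windows the kB consensus was found in 12 of 34 target genes, 6 of 15 of the further inhibitors and 3 of 27 upstream genes, beside the 9.55% of all genes given above.

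**Figure D5:**
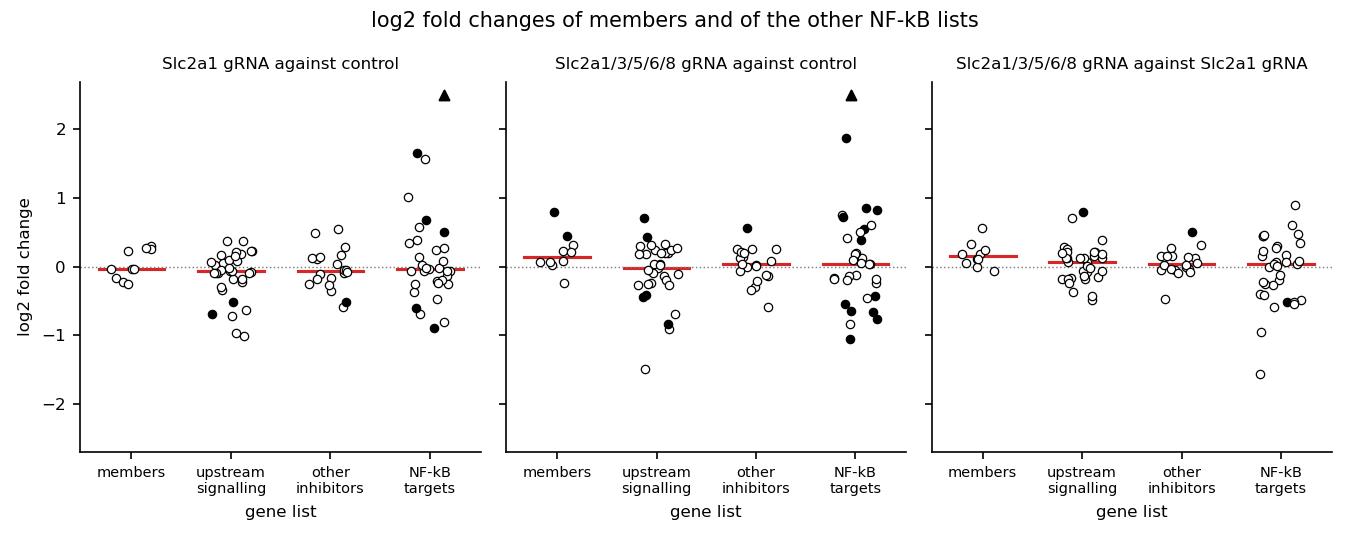
log2 fold changes by edgeR of the 10 members and of the tested genes of the 3 lists in each comparison, with filled points at an adjusted p under 0.05, red bars at the list medians and a small sideways scatter for legibility. Triangles at the upper edge stand for *Ccl3*, which had no count in control and lies off the axis, and the medians of all lists lie within 0.15 of 0 while single targets such as *Ltb* (1.88 with the 5 gRNAs) lie far from it.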

How the data were processed

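RNA of 9 samples, 3 in each of 3 groups, had been made into cDNA with oligo-dT primers and sequenced as paired reads of 150 bases. The authors quantified the reads with Salmon (1.5.1 in the submitters' processing notes) on the Galaxy platform and deposited 1 gene table per sample. From the tables the authors deposited, the estimated counts (expected counts, of which 47.7% of those above 0 are not whole) and the TPM were used. The lengths that the authors deposited, a value other than expression, were read to judge TPM. The index annotation and strand setting are not given in the sources used here. Coordinates came from GENCODE M21 (GRCm38), which holds 49351 of the 53077 names, and promoters from RefSeq (GRCm38.p6).

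The counts were rounded, and edgeR 4.0.16 (R 4.3.3) was run with TMM, its default filter on low counts and its quasi-likelihood test, in 1 fit of 13834 genes and all 9 samples. Replicate number entered as a block, since the study states a paired test for its transcript levels. A gene was called at a Benjamini-Hochberg adjusted p under 0.05 over all genes tested, and standard errors were derived from the F statistic. The fit was tested on simulated data beforehand. Groups and replicate numbers were taken from the sample titles, and the 3 comparisons were each deleted group against control and the deleted groups against each other. The samples of a group are called biological replicates, but whether each came from its own transduction is not given in the sources used here. The p-values thus measure the spread between these samples only, and in the main fit the part of it left after the replicate block.

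Alternatives were DESeq2 1.42.0, total count normalization, leaving out the replicate block, no filter, a minimum of 10 counts in each sample, fits of the 2 compared groups alone, limma 3.58.1 on log2(TPM + 1) and log2(TPM + 0.1), and each sample left out in turn. DESeq2 without the block was added after seeing the data. The members and gene lists were chosen with earlier results of these data known. All members are named. From each list up to 4 called genes per comparison with a mean of at least 1 TPM are named by smallest adjusted p, beside the few said to be given after their values were seen, with 11 receptor, TRAF3 and kinase genes named for their levels. The authors' sequencing of edited sites and flow cytometry were not analysed here.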

Additional observations from a re-analysis of the deposited data

How the results depend on the processing

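Direction and call were the same as in the fits reported in 491 refits of single members, while 32 reversed the sign, 8 lost and 9 gained a call. Only the calls of *Rel* and *Nfkbia* with the 5 gRNAs against control could be lost. They held in 8 and 6 of the 9 fits that left out 1 sample, and each in 7 of the 9 other alternatives. The number of members called in *Slc2a1* gRNA cells was 1 instead of 0 when only the 2 groups were fitted. With the 5 gRNAs it was 0 and 0 instead of 2 with limma on log2(TPM + 1) and log2(TPM + 0.1), and 0 to 4 when 1 sample was left out. It was 1, 1 and 0 without control replicate 1, 2 or 3 and 4 without replicate 1 of the 5-gRNA group. In the deleted groups compared directly it was 1 with DESeq2 (0 without its replicate block) and 1 with no filter on low counts, and 0 to 1 with 1 sample left out (1 without replicate 1 of either group). Signs were reversed as follows. With the 5 gRNAs against control, *Nfkb2* was at -0.0218 with total counts and -0.0378 and -0.0394 with limma, and *Birc3* at -0.19 and -0.20 with limma. In the direct comparison of deleted groups *Nfkb1* was at 0.0062 and 0.0055 with limma, *Nfkbie* at 0.044 with total counts, 0.0042 without a filter and 0.0743 and 0.0848 with limma, and *Birc3* at -0.10 and -0.11 with limma. With 1 sample left out, the log2 fold changes in *Slc2a1* gRNA cells spanned -0.0080 to 0.42 (*Rel*), -0.0837 to 0.0581 (*Tnfaip3*), -0.11 to 0.0771 (*Birc3*) and -0.14 to 0.013 (*Traf3*). With the 5 gRNAs they spanned -0.0428 to 0.13 (*Nfkb2*), -0.0128 to 0.22 (*Relb*), -0.40 to 0.045 (*Nfkbie*) and -0.10 to 0.18 (*Birc3*), and between the deleted groups -0.20 to 0.12 (*Nfkb1*), -0.0368 to 0.16 (*Rela*), -0.17 to 0.28 (*Nfkbie*) and -0.0581 to 0.21 (*Birc3*). Total counts moved the median of all genes to -0.095 in *Slc2a1* gRNA cells, and limma on TPM to -0.111 and -0.157. The cause of these changes was not tested.

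Upstream genes called in *Slc2a1* gRNA cells were 2, but 4 with only the 2 groups, 0 and 0 with limma and 0 to 4 with 1 sample left out. Upstream calls with the 5 gRNAs were 5, but 0 and 1 with limma and 2 to 6 with 1 sample left out. Upstream calls between the deleted groups were 1, but 2 with DESeq2, 2 with DESeq2 without the block, 2 with no filter, 0 with limma on log2(TPM + 1) and 0 to 1 with 1 sample left out. Further inhibitors called in *Slc2a1* gRNA cells were 1, but 2 with DESeq2, 0 with no replicate block, 2 with no filter, 4 with only the 2 groups, 0 and 0 with limma and 0 to 2 with 1 sample left out. Inhibitors called with the 5 gRNAs were 1, but 0 with no replicate block, 0 with total counts, 0 and 0 with limma and 0 to 2 with 1 sample left out. Inhibitors called between the deleted groups were 1, but 0 without the block in edgeR and in DESeq2, 0 with only the 2 groups, 0 and 0 with limma and 0 to 1 with 1 sample left out. Targets called in *Slc2a1* gRNA cells were 6, but 10 with no filter, 13 with only the 2 groups, 0 and 1 with limma and 0 to 9 with 1 sample left out. Targets called with the 5 gRNAs were 13, but 6 and 7 with limma and 6 to 14 with 1 sample left out. Targets called between the deleted groups were 1, but 5 with DESeq2, 2 with DESeq2 without the block, 0 with no replicate block, 0 with total counts, 6 with no filter, 0 with only the 2 groups, 0 and 0 with limma and 0 to 5 with 1 sample left out.

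Replicate numbers were shared across groups. Same-numbered deviations correlated at 0.111 to 0.215 between *Slc2a1* gRNA and control, at -0.065 to 0.162 between 5-gRNA and control samples and at -0.107 to -0.034 between the deleted groups, so the numbers pair the samples by the data in the first of these at most. With no replicate block, *Rel* with the 5 gRNAs was at 0.82 (adjusted p = 0.033) and *Nfkbia* at 0.44 (adjusted p = 0.0205), and the counts of members called were 0, 2 and 0 in the 3 comparisons. Over all genes the fit without the block called 534, 1885 and 129 genes in place of 642, 2204 and 319. Counts over all genes were 0, 433 and 31 with limma on log2(TPM + 1), 2268 (16.7%), 2233 and 116 with only the 2 groups, 1448, 2751 and 974 with no filter, and 11 to 1291, 631 to 2559 and 42 to 383 with 1 sample left out. They were 1161, 2504 and 720 with DESeq2 (4.39%, 9.46% and 2.72% of 26457). Without its block they were 1139, 2377 and 464 (4.31%, 8.98% and 1.75%), and with total counts in edgeR 737, 1963 and 295. The list counts under these settings are to be read beside them. With 3 samples a group, changes smaller than about the intervals given could not be resolved, and *Tnfrsf17*, *Cd40* and *Ccl3* rest on few counts.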
